A study of Mus musculus with 3 samples.

Results

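The colony-stimulating factors and their receptors were followed in lipid A-treated mouse macrophages. The group was chosen by symbol and holds 10 genes of the 55536 annotated in the files: the ligands Csf1, Il34, Csf2 and Csf3 and the receptor genes Csf1r, Csf2ra, Csf2rb, Csf2rb2, Csf3r and Flt3. The rule uses symbols and no measured value, and all 10 symbols were found. Polyadenylated RNA had been sequenced from bone-marrow-derived macrophages, primary cells grown from the marrow of C57BL/6J mice. Per the labels' written description, the cells received 100 ng/ml lipid A for 12 h, were washed out for 12 h, and received 100 ng/ml lipid A again for 480 min. Lipid A is the part of bacterial lipopolysaccharide that Toll-like receptor 4 senses, whereas the structured treatment entry reads lipoprotein A. The 3 libraries, biological replicates 1, 2 and 3, form 1 group, each from 1 µg of RNA. The labels give the same donor record for all 3 and no sex or age, so the spread between libraries may be technical. No untreated or once-treated cells were analysed here, so levels and their spread are given and no effect of lipid A. The labels do not say which growth factor the cultures received.

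Colony-stimulating factors are secreted proteins that keep myeloid cells alive, make them divide and steer their maturation. CSF1 and interleukin-34 both bind CSF1R, a receptor tyrosine kinase on which macrophages depend, while CSF2 (GM-CSF) signals through the pair of CSF2RA and a beta chain, and CSF3 (G-CSF) through CSF3R. FLT3 is a tyrosine kinase of the CSF1R family, found on progenitors and dendritic cells. In macrophages, signals from Toll-like receptors are known to turn on Csf1, Csf2 and Csf3.

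The libraries held 24596382, 54016971 and 43127749 expected counts in replicates 1, 2 and 3. An expected count is a number of reads per gene in which reads that could come from several transcripts are shared out by a model. Levels are given as TPM, a share of the library that corrects for transcript length and is the scale on which genes are compared here. Replicate 2 stood apart in mitochondrial mRNA, with 6.86% of counts against 1.06% in replicate 1 and 1.13% in replicate 3. All 8 macrophage markers lay at 1 TPM or more in every library, led by Lyz2, Cd68 and Adgre1, while the 4 B cell markers and the 7 stem and progenitor markers lay under 1 TPM throughout. Other lists held single genes at higher levels: the T and NK cell list summed to 20.0, 114 and 33.7 TPM, nearly all Cd4, the osteoclast list to 32.4, 18.7 and 43.7, mostly Acp5, and the endothelial list was mostly Kdr, at 35.2, 7.90 and 23.8. Replicate 2 stood apart in each, and their part in the results was not tested.

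Of the 10 genes, 6 lay at 1 TPM or more in every library: 5 receptor genes and 1 ligand, Csf1. Of all 22028 protein-coding genes, 10023, 9660 and 10062 reached 1 TPM in replicates 1, 2 and 3. In order of mean TPM the 6 members ran Csf1r, Csf2ra, Csf2rb, Csf3r, Csf2rb2 and Csf1, followed far below by Csf2, Csf3, Flt3 and Il34. Among the 10350 protein-coding genes that reached 1 TPM in at least 1 library the median was 15.1 TPM, and all 6 stood above it. Csf1r ranked 616th, 535th and 595th of all protein-coding genes in replicates 1, 2 and 3.

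**Figure D1:**
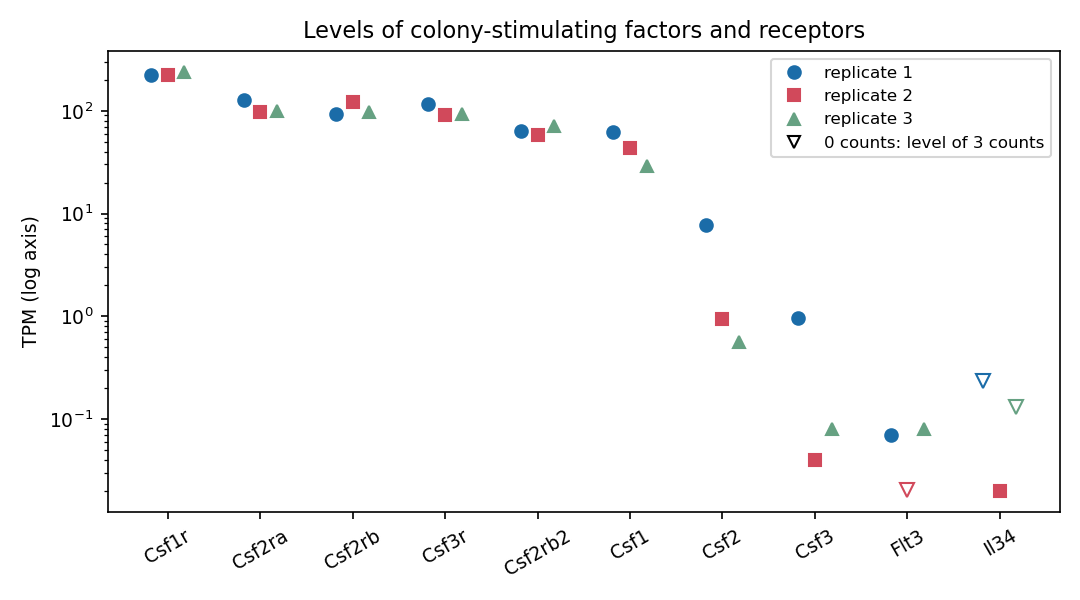
TPM of each gene in each of the 3 libraries, on a log axis, ordered by mean TPM from left to right. Filled symbols are measured values and open triangles stand where a library had 0 counts, at the TPM that 3 counts would give there. The 5 receptor genes on the left keep close values in the 3 libraries, while Csf2 and Csf3 lie far higher in replicate 1 than in the others.

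Among the ligands, Csf1 was the one found at a substantial level in every library. Csf1 measured 62.12 TPM in replicate 1, 43.19 in replicate 2 and 28.75 in replicate 3, a mean of 44.7 ± 16.7 (SD, n = 3). No library repeated another, with replicate 1 highest, and the coefficient of variation of 37.5% was above the median of 26.9% among 6271 protein-coding genes at a mean of 10 TPM or more. In CPM, the counts scaled to a common library total, which carry no length correction, Csf1 stood at 137 in replicate 1, with an exact 95% Poisson interval of 132 to 142, against 69.1 (66.9 to 71.3) in replicate 2 and 68.4 (65.9 to 70.9) in replicate 3. Thus replicate 1 was highest on both scales. The intervals of replicates 2 and 3 overlapped in CPM, while their TPM, for which no interval was computed, differed. That overlap depended on the scaling. With library totals adjusted by TMM, a scaling factor per library, Csf1 stood at 136.5, 78.29 and 61 CPM in replicates 1, 2 and 3. The intervals and all count limits here cover counting error only. Csf1 lies on mouse chromosome 3, minus strand, at 107741048 to 107760469 in mm10.

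The main Csf1 transcripts differed in share between libraries. Csf1-201, of 4176 bases with 552 codons, made up 57.95% of the gene's TPM in replicate 1, 2.67% in replicate 2 and 63.07% in replicate 3. Csf1-203, of 2097 bases, has the same number of codons and a 3′ end that stops earlier in the genome, and it made up 11.60%, 70.43% and 11.44%. Replicate 2 was therefore the library with the short form in the lead, and the second quantification, made from the reads by another method, also gave it the highest share there, at 54.3% against 10.5% and 14.0%. Csf1-202, which has 257 codons and encodes a shorter precursor, held 23.57%, 22.02% and 20.94%, or 22.2% ± 1.32 (SD, n = 3). That evenness was not found in its share of counts, higher in replicate 2 than in replicates 1 (20.7%) and 3 (17.8%), or in the second quantification (10.7%, 1.80% and 7.48%). TPM divides by length, so these shares enter the gene level: the effective length of Csf1 in replicate 2 differed from that in the other libraries by -0.63 on the log2 scale, against 0.02 for the median gene.

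The stretch before the start of Csf1 is shown because its level was the only substantial one among the ligands and because NF-κB, the main transcription factor family downstream of Toll-like receptor 4, was well represented in these cells, with Nfkb1 at 115, 53.5 and 91.1 TPM. The sequence is from RefSeq, GRCm38.p6, minus strand, chr3:107760470-107760719, written 5′ to 3′ and ending at the base before the annotated start, which is the same in GENCODE. Capitals mark matches to GGGANNNNCC, an NF-κB-type motif, on either strand.
Csf1: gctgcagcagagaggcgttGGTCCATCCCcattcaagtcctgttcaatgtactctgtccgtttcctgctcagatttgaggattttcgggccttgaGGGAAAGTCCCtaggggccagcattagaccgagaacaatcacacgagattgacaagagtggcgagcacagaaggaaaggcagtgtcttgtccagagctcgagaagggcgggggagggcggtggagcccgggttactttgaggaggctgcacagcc
There were 3 matches, at 231 to 222, 155 to 146 and 154 to 145 bases before the start, and the last pair overlap on opposite strands. The motif was chosen after the sequence had been seen. It was found in 17.6% of 32851 windows of 250 bases before RefSeq starts, so a match is common and is given as a description. Of the 6 member genes with such a window, 2 held it, Csf1 and Csf3r. The windows of Csf2 and Flt3 held neither this motif nor the one searched for the receptors below, but the RefSeq start of Csf2 lies 232 bases upstream of the GENCODE start, so the stretch directly before the latter was not searched.

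Csf2, which encodes GM-CSF, was low and uneven. It measured 7.80 TPM in replicate 1, 0.95 in replicate 2 and 0.56 in replicate 3, from 72, 23 and 9 counts. Replicate 1 stood well above the others: in CPM it was 6.87 times replicate 2 (exact 95% interval 4.25 to 11.5) and 14.0 times replicate 3 (6.99 to 31.9). Replicate 2 was 2.04 times replicate 3, with an interval that includes 1 (0.910 to 5.01), whereas the chi-square test of these libraries on TMM-scaled sizes gave an adjusted p of 0.0196 over all genes, so the methods differed on that pair. The mean of 3.10 ± 4.07 TPM (SD, n = 3) thus rests on replicate 1. In such bulk RNA, fewer cells making a transcript and less transcript per cell cannot be told apart. All reads fell to the single annotated transcript, Csf2-201, of 141 codons, on chromosome 11, minus strand, at 54247271 to 54249667.

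Csf3, which encodes G-CSF, was near the limit of detection outside replicate 1. It measured 0.97 TPM in replicate 1, 0.04 in replicate 2 and 0.08 in replicate 3, from 19, 2 and 3 counts. In CPM, replicate 1 was 20.9 times replicate 2 (5.03 to 185) and 11.1 times replicate 3 (3.27 to 58.6). Both intervals lay above 1 and were wide. Csf3 lies on chromosome 11, plus strand, at 98701263 to 98703629, with 1 annotated transcript of 208 codons.

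Il34, the other ligand of CSF1R, was not detectable at this depth. It had 0 counts in replicates 1 and 3, which allows up to 0.235 and 0.132 TPM (the level of 3 counts), and 1 count in replicate 2 (0.02 TPM). Csf1 was at least 264-fold higher than Il34 in replicate 1 and at least 218-fold higher in replicate 3. In replicate 2 the ratio was 2673, with a counting interval of 480 to 105566. Of the known CSF1R ligands, Csf1 thus accounted for nearly all the mRNA.

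All 3 detected ligands were highest in replicate 1, where 24.2% of the 6271 genes at a mean of 10 TPM or more, a set without Csf2 and Csf3, had their highest value. In the companion list of 21 related cytokines and receptors, 5 genes were highest in replicate 2, 3 in replicate 3, and 4 had 0 counts throughout. The rest were highest in replicate 1, the list's inflammatory cytokines among them. Tnf measured 706, 233 and 231 TPM, Il1b 292, 132 and 130, and Il1a 267, 152 and 82.0. Il6, picked out after its values were seen, measured 62.9, 3.25 and 7.90 TPM. Within replicate 1 the order among the ligands was the same as in the others: Csf1 exceeded Csf2 by 2.98, 5.37 and 5.45 on the log2 scale of TPM + 0.1 in the 3 libraries (4.60 ± 1.40, SD, n = 3), and Csf2 exceeded Csf3 by 2.88, 2.91 and 1.87 (2.56 ± 0.59). The mean of Csf2 over Csf3 depended on the added 0.1, and was 3.31 with 0.01 and 1.20 with 1. Whether cultures differed in activation state was not tested.

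**Figure D2:**
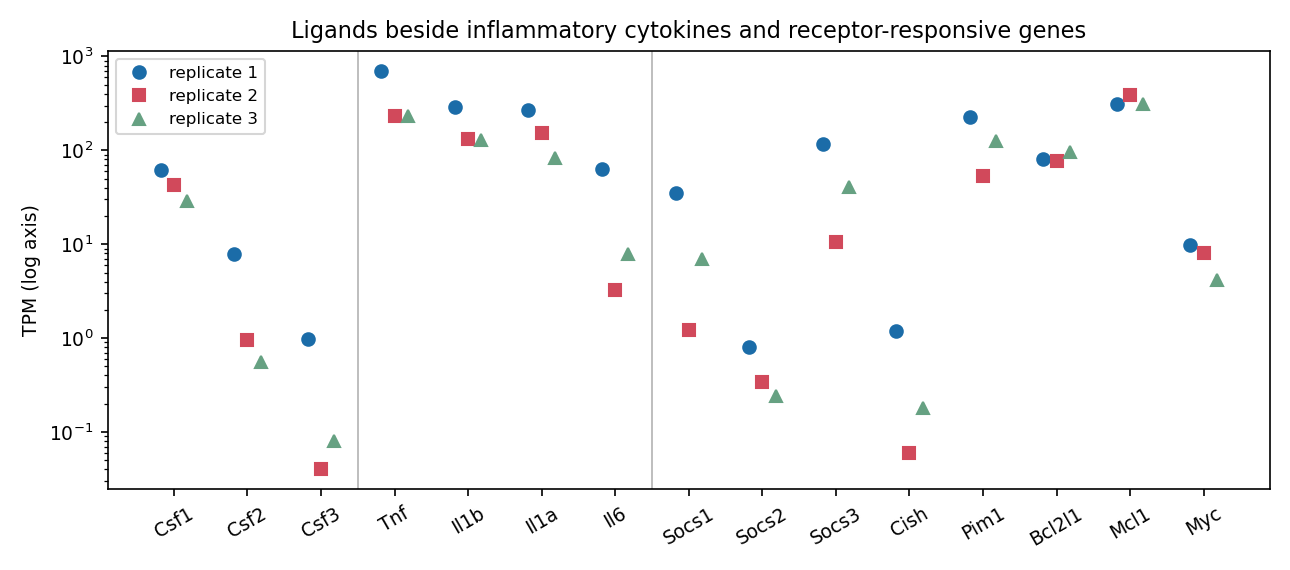
TPM on a log axis of the 3 detected ligands (left), inflammatory cytokines (middle) and the response genes of the JAK and STAT list (right), 1 symbol per library. Replicate 1 is the highest library for each ligand, each cytokine and the response genes other than Mcl1 and Bcl2l1. Mcl1 is highest in replicate 2 at 393 TPM and Bcl2l1 in replicate 3 at 95.8 TPM.

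Csf1r, the receptor for CSF1 and interleukin-34, was the most abundant of the group. It measured 223.22, 220.68 and 240.08 TPM in replicates 1, 2 and 3, or 228 ± 10.5 (SD, n = 3). In this quantification the libraries lay close together, with a coefficient of variation of 4.62%. The second quantification, made from the same reads, gave 166.50, 235.19 and 245.95 TPM, or 216 ± 43.1, with replicate 1 well below the others. The counts gave another picture, with 583 CPM (574 to 593), 396 (391 to 401) and 668 (661 to 676), so that replicate 2 was lowest and no intervals overlapped. With TMM-scaled totals the values were 581, 448.6 and 596.1, with replicate 2 again lowest and replicates 1 and 3 much closer. The gap between TPM and counts lies in 1 short transcript: Csf1r-205, an incomplete model of 416 bases. It took 43.27% of the gene's TPM in replicate 2 from 3.69% of its counts, and 0% in replicates 1 and 3. The second quantification gave it 41.8% in replicate 2 against 6.15% and 11.3%. Over the complete coding transcripts alone, Csf1r-201 and Csf1r-202, both of 977 codons, the level was 222.84, 125.21 and 239.63 TPM, with replicate 2 well below the others. The second quantification gave these transcripts 154.18, 134.89 and 216.50 TPM, with replicate 2 again lowest but nearer to replicate 1. The even gene-level TPM of Csf1r was thus found neither in the second quantification nor over the full-length mRNA alone. Csf1r lies on chromosome 18, plus strand, at 61100598 to 61132149, and overlaps Hmgxb3 on the opposite strand, which had 591, 880 and 1059 counts. Whether the counting used strand is not given in the sources used here, so reads in the overlap cannot be assigned with certainty.

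Flt3, of the same kinase family, was nearly silent. It had 4, 0 and 9 counts, or 0.07, 0.00 and 0.08 TPM, and the 0 in replicate 2 allows up to 0.0202 TPM. Csf1r exceeded it 3228-fold in replicate 1 (counting interval 1261 to 11849), at least 10925-fold in replicate 2 and 2880-fold in replicate 3 (1517 to 6298). Of 7 dendritic cell markers, Flt3 included, 6 lay under 1 TPM in every library and Cd209a had 0 counts, while their summed level was 4.33, 2.46 and 3.04 TPM. All 7 stem and progenitor markers summed to 0.690, 0.960 and 1.43 TPM. Flt3l, which encodes the ligand of FLT3, was present at 10.5, 6.41 and 9.28 TPM.

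The GM-CSF receptor was represented by all its genes. Csf2ra, the ligand-binding alpha chain, measured 128.45, 96.41 and 98.91 TPM in replicates 1, 2 and 3, a mean of 108 ± 17.8 (SD, n = 3). Replicate 1 was highest, and replicates 2 and 3 were close. Csf2rb, the beta chain shared by the receptors for GM-CSF, interleukin-3 and interleukin-5, measured 93.70, 122.08 and 97.24 TPM, a mean of 104 ± 15.5. Here replicate 2 was the high one. Csf2rb2, the mouse beta chain used with the interleukin-3 receptor, measured 63.07, 58.28 and 70.88 TPM, a mean of 64.1 ± 6.36, with all libraries close. The second quantification spread both beta chains more, with 84.48, 121.08 and 133.10 TPM for Csf2rb and 43.12, 75.22 and 62.05 for Csf2rb2, and replicate 1 lowest for each. Within libraries, Csf2rb over Csf2ra came to -0.45, 0.34 and -0.02 on the log2 scale, so the alpha and beta chains were not separated. In gene TPM, Csf2rb lay above Csf2rb2 in every library, by 0.57, 1.07 and 0.46, though the mean of 0.70 ± 0.32 did not exceed 3 SD, the limit used here for calling a pair separated. That order depended on the scale: the pair was separated in the second quantification (0.92) and without replicate 2 (0.51), but over complete coding transcripts the mean was 0.05 ± 0.50 and Csf2rb lay below Csf2rb2 in replicate 2.

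Part of the Csf2ra and Csf2rb signal came from transcripts that do not encode a whole receptor. Of Csf2ra, the coding transcript Csf2ra-201 (388 codons) held 47.93%, 23.31% and 46.14% of TPM. Csf2ra-202, which keeps introns, held 53.17% in replicate 2 against 6.78% and 5.12%, but the second quantification put it at 1.97% there and Csf2ra-201 at 84.8%. The lead of the intron-keeping form in replicate 2 therefore depends on the quantification. Csf2ra-204, a noncoding transcript of 330 bases, held 27.03%, 3.79% and 23.48% of TPM, from 2.53%, 0.283% and 1.90% of the counts. Of Csf2rb, the full-length Csf2rb-201 (896 codons) held 90.68%, 33.53% and 81.31%. In replicate 2 the incomplete Csf2rb-208 (340 bases) took 39.30% and Csf2rb-202 (397 bases) took 25.71% of TPM, from 2.99% and 2.81% of the counts. So the high TPM of Csf2rb in replicate 2 came with short models and few reads. In CPM, Csf2rb was lowest there, at 155 (152 to 158) against 268 (262 to 275) and 262 (257 to 266).

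Restricted to complete coding transcripts, the levels in replicates 1, 2 and 3 were 85.25, 40.94 and 79.39 TPM for Csf2rb, 61.56, 22.48 and 45.64 for Csf2ra, and 61.70, 57.79 and 69.50 for Csf2rb2. On this scale, chosen after the data were seen, replicate 2 was lowest for all 3 genes, and Csf2rb exceeded Csf2ra by 0.71 ± 0.21 on the log2 scale. In the second quantification replicate 2 was again lowest for Csf2rb (57.06, 41.20 and 67.38 TPM) but highest for Csf2ra (42.77, 89.82 and 38.24) and Csf2rb2 (40.91, 74.49 and 59.38). In CPM, Csf2ra was also highest in replicate 2, at 88.8, 116 and 67.1. The complete coding share of TPM was lower in replicate 2 than in both other libraries by at least 20 percentage points for 4 of the 6 member genes at 10 TPM or more, Csf1r, Csf2ra, Csf2rb and Csf3r. Among 6268 protein-coding genes at that level the figure was 16.9%, so other genes shared the pattern. In the second quantification it held for 2 of the 6, Csf1r and Csf3r, and for 14.9% of 6262 genes. What sets replicate 2 apart was not tested. It is the deepest library and the one with the most mitochondrial mRNA.

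**Figure D3:**
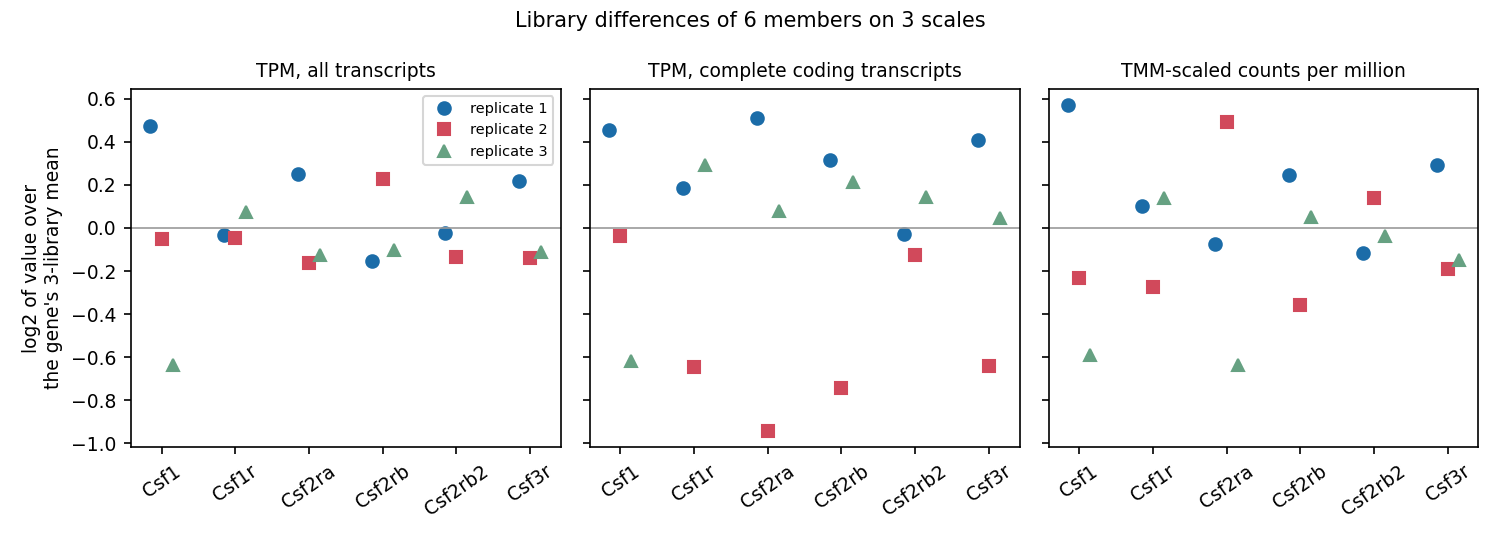
Value of each library over the gene's mean of the 3 libraries, as log2, for the 6 members at 1 TPM or more in every library, on 3 scales: TPM over all transcripts, TPM over complete coding transcripts, and CPM scaled by TMM. Replicate 2 of Csf1r, Csf2rb and Csf3r lies close to or above the other libraries in the left panel and well below them in the middle one, while replicate 1 of Csf1 is high in all panels.

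The beta chain genes are closely related neighbours. Csf2rb2 lies on chromosome 15, minus strand, at 78282507 to 78305721, and Csf2rb on the plus strand at 78325752 to 78353847, with 20030 bases between them. Of the 31-base words in Csf2rb-201, 28.9% also occur in Csf2rb2-201, and the longest shared run is 242 bases. Reads in those stretches were divided by a model, so the ratio of the copies is uncertain. The first quantification gave a posterior SD of 6.85, 9.57 and 8.32 counts for each copy, small beside 6591, 8377 and 11282 counts of Csf2rb. The second quantification placed 90.8%, 26.9% and 92.6% of Csf2rb2 in Csf2rb2-201, of 878 codons, where the first placed 95.46%, 96.53% and 96.04%. The difference lies in replicate 2, where Csf2rb2-202, of 769 codons, took 72.1% in the second. Il3ra, the alpha chain of the interleukin-3 receptor, measured 47.0, 8.17 and 33.5 TPM. Il3 itself had 0 counts in all libraries, and Il5 and Il5ra had 1 count each.

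Csf3r, the G-CSF receptor, is best known from neutrophils. It measured 117.44, 91.63 and 93.49 TPM in replicates 1, 2 and 3, a mean of 101 ± 14.4 (SD, n = 3). Replicate 1 was highest. Neutrophil markers did not reach such levels: 6 of 9 lay under 1 TPM in every library, Ly6g and Retnlg had 0 counts, and the whole list summed to 3.89, 21.8 and 5.51 TPM, highest in replicate 2. Csf3r was lowest there in this quantification and highest there in the second, at 93.13, 99.98 and 91.66 TPM. The part of such cells in the level was not tested. Csf3r exceeded its ligand Csf3 by 6.78, 9.36 and 9.02 on the log2 scale of TPM + 0.1, or 8.39 ± 1.40. The size of this gap depended on the added 0.1, since Csf3 lay under it in replicates 2 and 3. The mean was 9.26 with 0.01 added and 6.28 with 1. The full-length forms Csf3r-201 and Csf3r-202, both of 837 codons and beginning at different first exons, held 76.26%, 39.52% and 67.79%, and 15.33%, 17.22% and 21.79%. The second quantification split them differently, with 36.6% and 38.7% on average, so the choice between these starts is not settled by these tables. Csf3r-203, a noncoding fragment of 921 bases, held 29.56% in replicate 2 against 4.35% and 6.08%. Over complete coding transcripts Csf3r stood at 107.57, 52.00 and 83.75 TPM, and in counts at 224, 141 and 184 CPM, with replicate 2 lowest on both. Csf3r lies on chromosome 4, plus strand, at 126024550 to 126044440.

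Spi1, the gene of the myeloid transcription factor PU.1, measured 459, 742 and 526 TPM, the highest of 18 genes listed for control of these loci, and PU.1 is known to act at receptor genes of this family. The stretches before the RefSeq starts of Csf2rb2, Csf2ra and Csf3r are shown because each holds GAGGAAG, a PU.1-type motif, which capitals mark on either strand. They are from RefSeq, GRCm38.p6, written 5′ to 3′ along the gene. Csf2rb2 is shown over chr15:78305722-78305971, minus strand, up to its start. Csf2ra is shown over chr19:61228419-61228448, minus strand, and Csf3r over chr4:126024563-126024592, plus strand, as 30 bases around the match, since their RefSeq starts lie inside the GENCODE gene.
Csf2rb2: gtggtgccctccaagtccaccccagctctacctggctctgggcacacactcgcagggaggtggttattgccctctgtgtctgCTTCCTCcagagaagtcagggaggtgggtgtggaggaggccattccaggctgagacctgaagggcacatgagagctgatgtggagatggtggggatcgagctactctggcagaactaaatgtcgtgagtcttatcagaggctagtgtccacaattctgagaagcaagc
Csf2ra: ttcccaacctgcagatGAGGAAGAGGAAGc
Csf3r: tccttcctgaGAGGAAGgggctgtctatgt
The match in Csf2rb2 lies on the opposite strand at 168 to 162 bases before the start, the pair in Csf2ra at 14 to 8 and 8 to 2, sharing 1 base, and that in Csf3r at 86 to 80. The motif, also chosen after the sequences had been seen, was present in 10.6% of the 32851 windows and in 3 of the 6 member windows. No binding was measured, so a match is not shown to be a site.

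**Figure D4:**
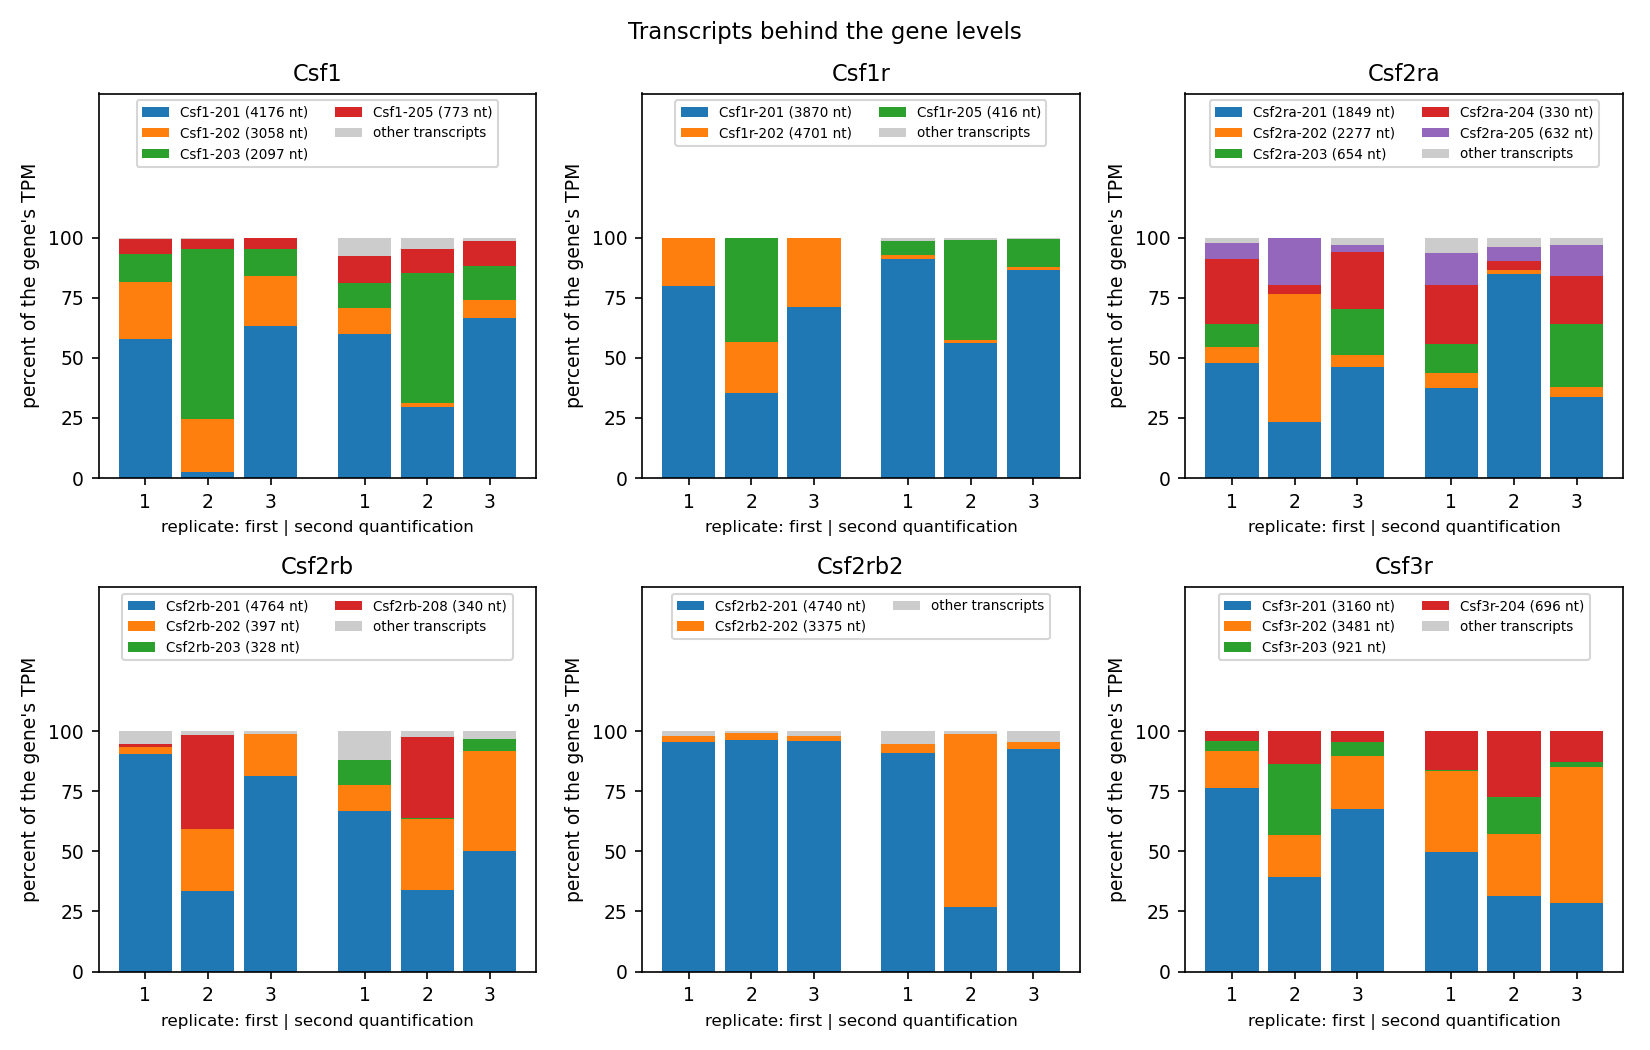
Share of each gene's TPM held by its transcripts, in percent, for the 3 libraries in the first quantification (left bars) and the second (right bars), and transcripts under 10% in every library are pooled in grey. Bars of replicate 2 differ most: Csf1-203 reaches 70.43% and Csf1r-205 43.27% there in the first quantification, and Csf2rb2-202 72.1% in the second.

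Of 20 pairs of genes compared within libraries, 15 were rated for separation. Pairs with Il34 or Flt3, each at 0 counts in at least 1 library, were left out of this rating. Of the 15, 9 were separated, that is, of like sign in each library and with a mean larger than 3 times the SD. The separated pairs that include Csf3 rest on its 19, 2 and 3 counts in replicates 1, 2 and 3. An exact sign-flip permutation over 3 libraries cannot go below p = 0.25, so no p-value is given. Csf1r stood above each other receptor gene it was paired with: by 1.09 ± 0.26 on the log2 scale over Csf2ra, 1.14 ± 0.25 over Csf2rb and 1.18 ± 0.23 over Csf3r (SD, n = 3). Receptor genes below it that were neighbours in mean TPM were not separated. Csf3r over Csf2rb was -0.05 ± 0.37, and Csf3r over Csf2rb2 0.65 ± 0.25, which passed the limit without replicate 3 (0.77). Nor was Csf2rb2 separated from the next gene, Csf1, at 0.58 ± 0.65. Csf1r exceeded its ligand Csf1 by 1.84, 2.35 and 3.06, or 2.42 ± 0.61, and Csf2ra exceeded Csf2 by 4.02, 6.52 and 7.23, or 5.93 ± 1.68. Csf1r, Csf2ra and Csf3r thus each lay above the gene of their own ligand in every library. Without replicate 2, Csf1r over Csf1 (2.45) and Csf1 over Csf2 (4.21) no longer passed 3 SD, nor did Csf2ra over Csf2 without replicate 2 (5.63) or replicate 3 (5.27).

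The spread between libraries was tested across all genes. Counts differed beyond counting noise (chi-square test on TMM-scaled library sizes, adjusted p under 0.05) for 6 of the 6 members with enough counts, where 87.9% of 11932 genes did. The members therefore shared a feature of nearly all genes. Against the spread of genes of their abundance (edgeR quasi-likelihood residual variance), 0 of 6 members were called, as were 0 of all genes (0%). At an unadjusted p under 0.05, 503 genes and 0 members passed, and DESeq2 marked 17 genes and 0 members as dispersion outliers. Csf2, Csf3, Flt3 and Il34 had too few counts for these tests, and without the low-count filter Csf2 had an edgeR p of 0.0072, or 0.44 adjusted over all genes, and Csf3 0.0293, or 0.752. The high Csf2 and Csf3 of replicate 1 thus exceeded counting noise and did not pass edgeR's test of excess spread. Between the quantifications, limma called 0 of 7 members tested, against 1.66% of 10203 protein-coding genes, with mean differences of log2(TPM + 1) from -0.225 for Csf1 to 0.096 for Csf2rb. A difference was thus not called for any member gene total, although transcripts within genes were divided differently.

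Downstream of these receptors, the listed signalling genes were largely present. Of 23 genes for CSF1R partners and signalling, 23 lay at 1 TPM or more in every library. The highest were Fcer1g (4350, 4180 and 3468 TPM), an adaptor of activating receptors, Tyrobp (1922, 569 and 2341), the adaptor DAP12, and Ptpn6 (482, 478 and 497), the phosphatase SHP-1. Ptpn6 was steady across libraries, while Tyrobp was low in replicate 2. Of 16 JAK, STAT and response genes, 14 reached that level, among them Mcl1 at 310, 393 and 313 TPM and Pim1 at 227, 52.8 and 127. Mcl1 is a survival gene, and Pim1 is a known target of STAT5. Jak2, the kinase bound by the beta chain, measured 125, 97.6 and 77.7 TPM. The feedback genes Socs3 (118, 10.5 and 41.0 TPM) and Cish (1.19, 0.0600 and 0.180), picked out after their values were seen, were highest in replicate 1 and lowest in replicate 2, like Pim1. Socs2, another feedback gene, had 0.810, 0.340 and 0.240 TPM and was lowest in replicate 3. Over the whole list, replicate 1 held the highest value of 10 genes, replicate 2 of 5 and replicate 3 of 1.

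Of 18 genes for transcriptional control, 14 lay at 1 TPM or more in every library, with Spi1, Maf (142, 247 and 175 TPM) and Nfkb1 highest. Of 13 genes for shedding of surface receptors and for mRNA decay, 11 did. Zfp36, which encodes the decay factor tristetraprolin and is known to act on Csf2 mRNA, stood at 132, 89.8 and 98.7 TPM, its relative Zfp36l2 at 79.6, 76.4 and 74.2, and Adam17, a sheddase known to cleave CSF1R, at 72.8, 70.4 and 66.6. Whether any of these 3 bears on the level of Csf2 was not tested. Of 21 related cytokine and receptor genes, 9 lay at 1 TPM or more in every library, and Il3, Thpo, Ptprz1 and Epo had 0 counts throughout. Ptprz1 encodes another receptor of interleukin-34.

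Genes with the pattern most like Csf1r over the 3 libraries, by the root mean square difference of log2 TPM from each gene's mean, were Tmem68 (0.0017), Npepps (0.0049), Atg12 (0.0074), Stxbp5 (0.0077) and Me2 (0.0080). Those most like Csf3r were Tnrc6a (0.0083), Gpr18 (0.0098), Tmpo, Yme1l1 and Acbd5 (0.012 each). With 3 libraries such likeness is common: of 6262 genes, 595 lay within 0.1 of Csf1r and 233 within 0.1 of Csf3r. The likeness was taken on gene TPM of the first quantification, and the second gave Csf1r and Csf3r other patterns over the libraries.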

How the data were processed

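Polyadenylated RNA of 3 libraries in 1 group was measured. Per the labels and notes deposited with the files, reads were quantified on mm10 with GENCODE M21, once from transcriptome alignments and once against a transcript index. The tools, their versions and the strand setting are not named in the sources used here. Per the file headers, the deposited tables hold expected counts (estimated counts in the second quantification), TPM and, for transcripts, the percent of the gene (isoform percentage). Gene totals of the second are sums of its transcripts. Entries that name no gene took 0.0875%, 0.0464% and 0.0636% of counts and stayed out of tests.

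Expected counts were rounded and filtered with filterByExpr. TMM factors and the quasi-likelihood fit came from edgeR 4.0.16, quantification differences from limma 3.58.1 on log2(TPM + 1) with a low-value filter of 1 TPM, and an alternative from DESeq2 1.42.0, all with Benjamini-Hochberg adjustment over all genes. Scripts were tested on simulated data. Pairs used log2(TPM + 0.1). Limits at 0 are the level of 3 counts. Complete coding transcripts are those annotated as protein-coding without an incomplete end. RefSeq start windows matched 6 of 10 members.

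Members, lists and tests were chosen with earlier results of these data known. All 10 members are named, with the 3 highest genes of each list, genes at 0 counts, transcripts averaging 10% or more, and 5 genes most like Csf1r and Csf3r. Other named genes were picked after their values were seen. A listed gene that the rule names is not reported here.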

Additional observations from a re-analysis of the deposited data

How the results depend on the processing

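The count of members at 1 TPM or more in every library was 6 under each alternative run except a threshold of 0.5 TPM, which gave 7, and the count of separated pairs ranged from 7 to 10 around the reported 9. No paired analysis was possible because there is a single group. Counting noise calls ranged from 6695 to 9696 genes with a replicate left out, lowest without replicate 2, against 10491 with all. Excess spread calls, 0 in the reported fit, were 64 with no low-count filter and 17 with DESeq2 dispersion outliers, and ranged from 7 to 20 with a replicate left out, with 0 members among them in each case. Quantification calls were 169, 258 with a pseudocount of 0.1 and 0 with no low-value filter, and the cause was not tested. Csf2rb over Csf2ra turned from -0.05 to 0.71 over complete coding transcripts, an alternative added after the data were seen. On the same transcripts Csf1r over Csf1 (2.22) and Csf2ra over Csf2 (4.50) no longer passed 3 SD. Csf2 over Csf3 lost its separation with a pseudocount of 1 (1.20) and in CPM (1.53). Without replicate 3, Csf1 over Csf2 (4.17) did too. Separation was gained by Csf2rb over Csf2rb2 in the second quantification (0.92) and without replicate 2 (0.51), Csf2rb2 over Csf2ra without replicate 1 (-0.60) or 3 (-0.88), and Csf3r over Csf2rb2 without replicate 3 (0.77). Depth limits Csf3, Flt3 and Il34, whose levels rest on at most 19 counts in a library.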
